A study of Homo sapiens with 4 samples.

Results

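The genes described here are HSF1, the transcription factor that turns on the heat shock response, and 9 genes of the chaperones and cochaperones it is best known for: HSPA1A, HSPA1B, HSPA8, HSPH1, HSP90AA1, HSP90AB1, DNAJB1, HSPD1 and BAG3. They were chosen by symbol from knowledge of the pathway, with earlier results of these data known. All 10 were found among the 60708 genes of the count table and were among the 23321 genes with enough reads to be tested. The measurements are 4 TT-seq libraries, in which RNA made during 20 min of labeling with 4-thiouridine was pulled down and sequenced. All 4 came from HEK293, a human embryonic kidney cell line, with the RPB1 degron genotype, in which auxin triggers the loss of the cell's own RPB1, the largest subunit of RNA polymerase II. Cells were transfected for 48 h with a plasmid for RPB1, and auxin was then present for another 48 h in every sample. In 2 libraries (52X WT) the plasmid encoded RPB1 whose carboxy-terminal domain (CTD) has 52 wild-type repeats, and in the other 2 (52X T4A) threonine 4 was replaced by alanine in every repeat. The expression was transient, no heat treatment is named, and the 2 libraries of a condition are not stated to come from separate cultures, so the p-values measure only the spread between these samples. Fewer cells of a state and less RNA per cell cannot be told apart in such bulk libraries.

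Chaperones help other proteins fold and keep unfolded ones from clumping. HSP70 proteins bind exposed hydrophobic stretches in cycles driven by ATP, J-domain proteins such as DNAJB1 hand them their clients, and nucleotide exchange factors such as HSPH1 and BAG3 let the clients go. HSP90 proteins act later, on clients that are nearly folded, among them kinases and steroid receptors, and HSPD1 forms the folding chamber of mitochondria. In unstressed cells HSF1 is held in check by chaperones. When unfolded proteins draw these away, HSF1 forms trimers, binds heat shock elements in promoters and helps paused RNA polymerase II into elongation, which is why these genes are classic models of transcriptional control.

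A heat shock element is a run of inverted 5-base units, each with GAA or its complement TTC at a fixed spacing. The letters of 3 such units, TTCNNGAANNTTC or GAANNTTCNNGAA on either strand, were searched in the RefSeq (GRCh38.p14) windows of 250 bases upstream of each annotated start site. They were present in 155 of 35116 windows of all genes, or 0.441%. The letters of 2 units, GAANNTTC or TTCNNGAA, which also occur inside every 3-unit match, were present in 11.6% of the windows. Counted by gene, as the genes below are, 152 of 27305 genes (0.557%) had a 3-unit match in any of their windows and 13.96% had a 2-unit match. Of the 9 genes with a window, HSPA8, HSP90AA1, HSP90AB1 and HSPD1 held a 3-unit match, HSPA1A, HSPA1B and DNAJB1 held 2-unit matches only, and HSPH1 and BAG3 held neither in this window. HSF1 had no window. The stretches around the matches are printed below from 5′ to 3′ on the strand of the gene, because these letters are what HSF1 is known to bind, and the capitals mark the 3-unit matches or, in genes without one, the 2-unit matches. The HSP90AA1 stretch holds a further 2-unit match, 68 to 61 bases before the start site, in lower case.
HSPA1A, chr6:31815409-31815472, plus strand: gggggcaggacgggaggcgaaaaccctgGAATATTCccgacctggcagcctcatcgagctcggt
HSPA1B, chr6:31827605-31827668, plus strand: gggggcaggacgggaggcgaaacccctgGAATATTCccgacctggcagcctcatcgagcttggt
HSPA8, chr11:123062323-123062386, minus strand: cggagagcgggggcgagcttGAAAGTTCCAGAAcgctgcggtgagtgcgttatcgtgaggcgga
HSPA8, chr11:123062171-123062200, minus strand: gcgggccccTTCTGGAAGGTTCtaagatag
HSP90AA1, chr14:102087095-102087158, minus strand: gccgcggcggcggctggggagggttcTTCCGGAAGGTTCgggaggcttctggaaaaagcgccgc
HSP90AB1, chr6:44247752-44247815, plus strand: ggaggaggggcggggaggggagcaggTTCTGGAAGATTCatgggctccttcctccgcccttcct
HSP90AB1, chr6:44247805-44247868, plus strand: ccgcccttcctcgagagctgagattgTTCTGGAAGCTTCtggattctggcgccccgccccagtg
DNAJB1, chr19:14518424-14518487, minus strand: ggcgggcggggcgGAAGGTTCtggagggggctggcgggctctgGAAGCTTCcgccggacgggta
HSPD1, chr2:197500061-197500090, minus strand: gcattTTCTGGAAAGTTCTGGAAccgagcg

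The stretches of HSPA1A and HSPA1B, a pair of duplicated genes for the inducible HSP70, shared 62 of their 64 bases, and the whole upstream windows were 94.4% identical over 249 aligned bases. The match of HSPA1A lay 106 to 99 bases before its start site and that of HSPA1B 105 to 98 bases before. HSP90AB1 held both of its 3-unit matches within 165 bases of the third annotated start site, and HSP90AA1 held one 88 to 76 bases before the second. These matches describe letters only, and none of the libraries measured binding.

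The counts summed to between 33188536 and 45605027 per library. POLR2A, the gene of RPB1, was detected at 7492 to 9640 CPM (counts scaled by library size and TMM factor), and counts per gene do not show which CTD a cell expressed. Such scaling removes any change shared by all genes, so the levels and fold changes given here are relative to the other genes of a library. Of the HEK293 markers, NEFL, VIM, KRT8, KRT18 and PAX2 were present at between 80 and 3417 counts, while NEFM was near absent at 0 to 6 counts. Markers of blood, liver, muscle, endothelial and beta cells stayed at or below 38 counts, and PECAM1 was not analysed here. T4A replicate 1 stood apart. Of 14426 genes with a mean count of at least 100, 306 lay more than 1 log2 unit below the other 3 libraries there, against 0 in WT replicate 1, 2 in WT replicate 2 and 0 in T4A replicate 2. The log2 fold changes below are therefore given with and without that library. With 1 T4A library left, the test assumes that it varies as the WT libraries do.

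None of the 10 genes passed the test in 52X T4A against 52X WT. The test was the quasi-likelihood test of edgeR, Benjamini-Hochberg adjusted over 23321 genes, and a gene was called at an adjusted p below 0.05 and a fold change above 1.5. It called 1 gene of the whole table, or 0.00429%, which was CHST8, a gene outside the pathway that is named here after its values were seen. At an unadjusted p below 0.05, 1 of the 10 genes was lower in T4A, where 8.02% of all tested genes were, and 0 were higher, where 7.45% were. Both T4A libraries lay below both WT libraries for 2 genes, HSPA8 and DNAJB1, against 24.7% of all genes. Both lay above for 3 genes, HSPH1, HSP90AB1 and HSPD1, against 24.8% of all genes. The median log2 fold change of the 10 genes was -0.06, beside -0.00 for all tested genes. Without T4A replicate 1 the median was 0.02, and 0 genes were lower and 0 were higher at an unadjusted p below 0.05, against 7.75% and 6.25% of the 24571 genes then tested. For 7 of the 10 genes the 95% interval of the fold change lay within a 1.5-fold change either way. The exceptions were HSF1, HSPA1A and HSPA1B. Without T4A replicate 1 the interval lay within that limit for 9 genes, all but HSPA1A.

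**Figure D1:**
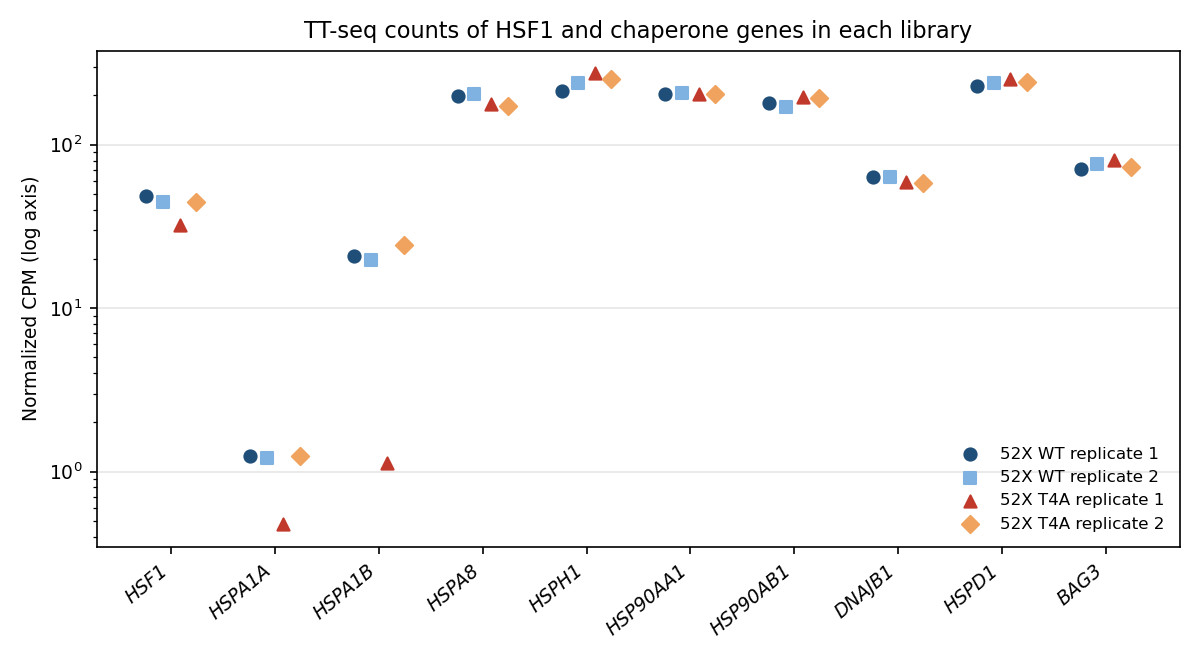
Normalized CPM (log axis) of HSF1 and the 9 chaperone genes, with 1 point for each of the 4 TT-seq libraries. In T4A replicate 1 HSPA1B sits at 1.13 CPM and HSPA1A at 0.477 CPM, below the other 3 libraries, while the 4 points of HSP90AA1 lie between 203 and 207 CPM.

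The levels spanned a wide range. Per kilobase of the listed gene span, which includes introns, the highest level in the WT libraries was that of HSPA8, the constitutive HSP70 of the cytosol, at 35.1 ± 0.973 CPM per kb (SD, n = 2). HSP90AB1, the constitutive HSP90, followed at 22.7 ± 0.905. HSPH1 at 8.21 ± 0.600, HSPA1B at 8.06 ± 0.326 and HSPD1 at 7.74 ± 0.212 came next and did not differ beyond their spread. The place of HSPA1B rests on its whole span. Per kilobase of its 1096 bases outside an overlapping gene, described below, its level was 18.5 CPM. Of the 100-base stretches of these bases, 79.2% also occur in HSPA1A, and only reads with a single best position were counted. Neither length therefore gives HSPA1B a firm place, and the limit of shared sequence holds for HSPA1A too. Below HSPD1 lay HSP90AA1 at 3.49 ± 0.0231 and BAG3 at 2.79 ± 0.138. HSF1 itself was at 2.02 ± 0.132, DNAJB1 at 1.39 ± 0.00383 and HSPA1A at 0.510 ± 0.0146 CPM per kb. In the T4A libraries the order was the same but for HSPA1B, whose mean of 5.07 had an SD of 6.54 and so gave it no place between HSPD1 at 8.18 ± 0.214 and HSP90AA1 at 3.46 ± 0.0226. HSF1 at 1.66 ± 0.390 and DNAJB1 at 1.29 ± 0.0174 did not differ there beyond their spread. The order depends on the length used. Per kilobase of exon in the WT libraries, HSP90AB1 came first at 58.9 CPM, ahead of HSPA8 at 41.6 and HSP90AA1 at 40.4, since HSP90AA1 has a listed span of 58958 bases but 5097 exonic bases.

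HSF1 (chr8:144291591-144314720, plus strand, 13 exons in its canonical transcript) had 1909 and 1960 counts with the WT CTD and 1077 and 1550 with the T4A CTD. These correspond to 48.8, 44.5, 32.1 and 44.8 CPM. T4A replicate 1 was the lowest library, and T4A replicate 2 lay between the WT replicates. The log2 fold change was -0.28 ± 0.15 (SE), with an adjusted p of 0.408 from edgeR's quasi-likelihood test and a 95% interval from -0.63 to 0.07. Without T4A replicate 1 it was -0.05, with an interval from -0.33 to 0.23. Without T4A replicate 2, which leaves T4A replicate 1 as the only T4A library, it was -0.55. These counts do not measure the activity of the HSF1 protein, which is controlled after translation.

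Among the HSP70 genes, HSPA8 (chr11:123057489-123063230, minus strand, 9 exons), whose upstream stretches above hold a pair of 3-unit matches, had 7739 and 9064 counts in WT and 5987 and 5948 in T4A. This is 198 and 206 CPM in WT against 178 and 172 CPM in T4A. Both T4A libraries were below both WT libraries, by a small margin. The log2 fold change was -0.20 ± 0.09 (SE), and it was the single value of the 10 with an unadjusted p below 0.05. After Benjamini-Hochberg adjustment over all genes edgeR gave 0.322. Without T4A replicate 1 the log2 fold change was -0.22, with an interval from -0.49 to 0.05. The introns of HSPA8 hold the snoRNA genes SNORD14C, SNORD14D and SNORD14E on the same strand, 260 bases in all, which were listed at 0. Of 5417 genes lying wholly inside a same-strand gene with at least 1000 counts, all 5417 were listed at 0, so reads over a stretch shared by same-strand genes were left out of the counts.

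HSPH1 (chr13:31134973-31162388, minus strand, 18 exons), an HSP110 protein that acts as an exchange factor for HSP70, was on the opposite side. It had 8357 and 10437 counts in WT and 9177 and 8707 in T4A, or 214, 237, 273 and 252 CPM. Both T4A libraries lay above both WT libraries after scaling, and the WT replicates themselves differed by more than WT replicate 2 and T4A replicate 2 did. The log2 fold change was 0.22 ± 0.10 (SE) with an adjusted p of 0.339 (edgeR), and 0.17 without T4A replicate 1, with an interval from -0.10 to 0.44.

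HSPA1A and HSPA1B, which encode the same stress-inducible HSP70, held the widest spread of the 10 genes. HSPA1B (chr6:31827738-31830254, plus strand, 1 exon) had 817 counts in WT replicate 1, 869 in WT replicate 2, 38 in T4A replicate 1 and 844 in T4A replicate 2. The exact 95% Poisson intervals, which cover counting error only, were 762 to 875 and 812 to 929 in WT, 26.9 to 52.2 in T4A replicate 1 and 788 to 903 in T4A replicate 2. The corresponding levels were 20.9, 19.7, 1.13 and 24.4 CPM. The T4A libraries thus lay on opposite sides of the WT libraries, one 17.9-fold below their mean and the other 1.20-fold above it. The T4A libraries differed from each other more than either did from WT, and the log2 fold change of -0.67 ± 0.87 (SE) had an adjusted p of 0.733 in edgeR and an interval from -2.66 to 1.33. Without T4A replicate 1 it was 0.27, with an interval from -0.03 to 0.58. No direction can therefore be given for HSPA1B.

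HSPA1A (chr6:31815543-31817946, plus strand, 1 exon) had few counts, at 49 and 53 in WT and 16 and 43 in T4A, or 1.25, 1.20, 0.477 and 1.24 CPM. T4A replicate 1 was again alone at the bottom, with a Poisson interval of 9.15 to 26.0 counts, while T4A replicate 2, with an interval of 31.1 to 57.9, lay between the WT replicates in CPM. The log2 fold change was -0.51 ± 0.47 (SE) with an adjusted p of 0.617 (edgeR), and 0.03 without T4A replicate 1. The count of HSPA1B over that of HSPA1A was 16.7 and 16.4 in WT, 2.38 in T4A replicate 1 and 19.6 in T4A replicate 2.

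The counts of this pair rest on little sequence. The transcripts are 95.2% identical over 2393 aligned bases, with 1 identical run of 1715 bases, and the table counts reads with a single best position, so how reads divide between the copies is uncertain. HSPA1B also shares 1421 of its 2517 bases, or 56.5%, with the lncRNA gene ENSG00000285565 (chr6:31828834-31839719) on the same strand, where reads were left out. Of the 1096 bases that remain, 207 lay in no 100-base stretch shared with HSPA1A. Their GC content was 65.2%, and that of the 1096 bases was 63.6%, against 55.03% for the rest of the gene. The lncRNA that begins inside HSPA1B and runs on past its end had 676 and 679 counts in WT and 843 and 861 in T4A, so it was not low in T4A replicate 1. Its log2 fold change was 0.61 ± 0.13 (SE) with an adjusted p of 0.173 (edgeR), and 0.62 without T4A replicate 1.

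**Figure D2:**
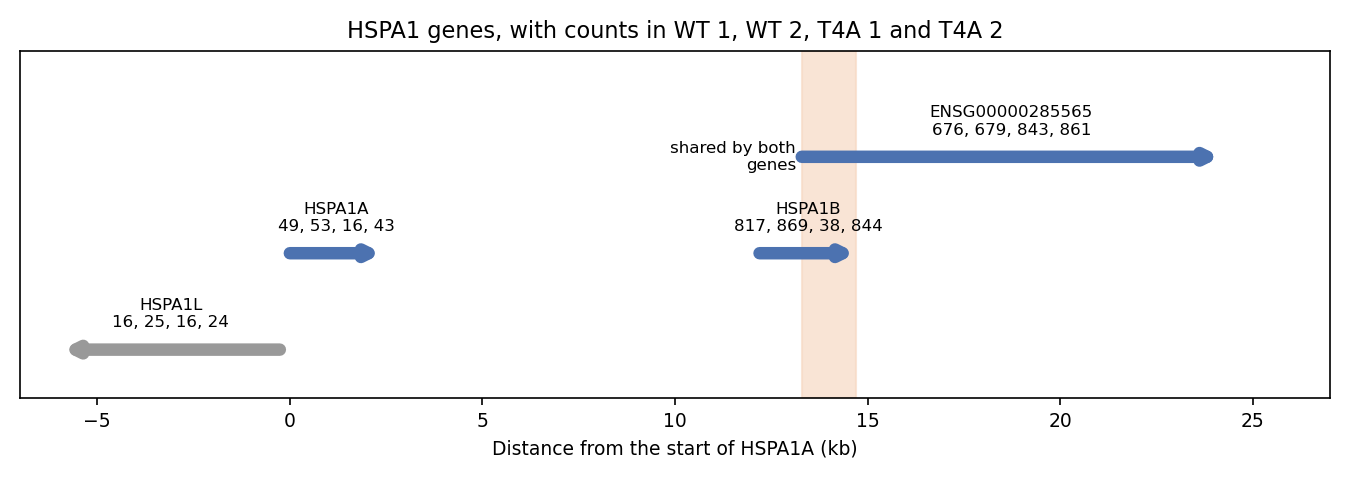
Map of the HSPA1 genes by distance from the start of HSPA1A (kb, to scale), with arrows pointing the way each gene is transcribed, blue for the plus and grey for the minus strand, and the counts of WT replicates 1 and 2 and T4A replicates 1 and 2 under each name. The shaded 1421 bases belong to both HSPA1B and the lncRNA gene. HSPA1B has 38 counts in T4A replicate 1 against 817 or more in the other 3 libraries, while the lncRNA has 843.

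The low values of T4A replicate 1 went with GC content across the table. Among genes with a mean count of at least 100, the median log2 level of T4A replicate 1 over the WT mean was -0.01 for the 3987 genes with a span below 40% GC. It was -0.45 for the 1101 genes between 55% and 60% GC and -1.13 for the 498 genes above that. In T4A replicate 2 the medians of the same classes were -0.11, 0.04 and 0.07. HSPA1A (59.8% GC), HSPA1B (58.8%) and HSF1 (56.8%) are the 3 of the 10 genes with more than 55% GC. In T4A replicate 1 they lay at -1.36, -4.16 and -0.54 relative to the WT mean, so HSF1 was near the median of its class. As low as HSPA1A or lower were 21 of the 1101 genes, and HSPA1B was the lowest of them. This rank goes by the GC content of the whole span. The HSPA1B bases outside the overlapping gene had 63.6% GC, and among the 498 genes above 60% GC the 5th percentile in T4A replicate 1 was -2.49. The other 7 genes, with 36.8% to 52.1% GC, lay between -0.18 and 0.28 in that library. The part of GC content in the values of HSPA1A and HSPA1B was not tested.

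**Figure D3:**
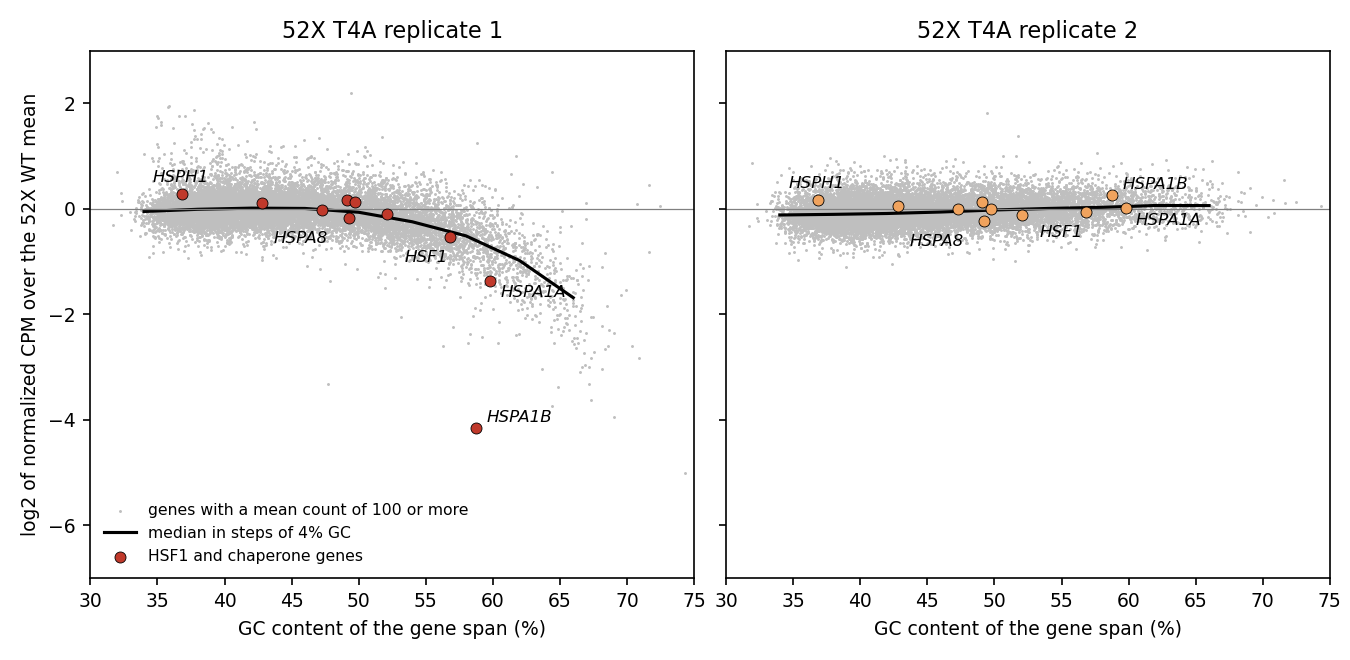
Log2 of normalized CPM over the mean of the WT libraries against the GC content of the gene span (%), for T4A replicates 1 and 2, with genes of a mean count of at least 100 in grey, their median in steps of GC content as a black line, and the 10 genes in colour. In T4A replicate 1 the grey cloud bends down above about 50% GC. HSPA1B, placed at the GC content of its whole span, lies at -4.16 there and at 0.27 in T4A replicate 2.

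Relative to the other genes, the HSP90 genes of the cytosol differed little between the conditions. HSP90AA1 (chr14:102080742-102139699, minus strand, 11 exons), the inducible form, had 8012 and 9108 counts in WT and 6824 and 7094 in T4A. After scaling, its levels of 205, 207, 203 and 205 CPM were the closest of the 10 genes. Its log2 fold change was -0.01 ± 0.09 (SE) with an adjusted p of 0.963 (edgeR) and an interval from -0.21 to 0.19. It was 0.00 without T4A replicate 1, and its sign also turned under other scalings of the libraries. HSP90AB1 (chr6:44246166-44253888, plus strand, 12 exons) had 7058 and 7513 counts in WT and 6579 and 6674 in T4A, or 180, 170, 196 and 193 CPM. Both T4A libraries were above both WT libraries, with a log2 fold change of 0.15 ± 0.09 (SE), an adjusted p of 0.439 (edgeR) and the same 0.15 without T4A replicate 1. The intervals of the HSP90AA1 and HSP90AB1 fold changes overlapped. Any part of their upstream 3-unit matches in these values was not tested.

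Of the cochaperones, DNAJB1 (chr19:14514769-14560391, minus strand, 3 exons), a heat-inducible J-domain protein of the cytosol, had 2473 and 2796 counts in WT and 1992 and 2013 in T4A. The levels of 63.2 and 63.4 CPM in WT and 59.3 and 58.2 CPM in T4A did not overlap, but the log2 fold change was only -0.11 ± 0.09 (SE), with an adjusted p of 0.574 (edgeR). It was -0.11 without T4A replicate 1 too. The listed span of DNAJB1 overlaps TECR on the opposite strand over most of its length, and TECR had 1442, 1664, 1111 and 1236 counts in the same order of libraries. BAG3 (chr10:119651380-119677819, plus strand, 4 exons), which directs HSP70 clients to autophagy, had 2786 and 3365 counts in WT and 2714 and 2539 in T4A, or 71.2, 76.3, 80.9 and 73.4 CPM. T4A replicate 2 lay between the WT replicates. The log2 fold change was 0.06 ± 0.09 (SE) with an adjusted p of 0.759 (edgeR), and 0.00 without T4A replicate 1.

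HSPD1 (chr2:197486584-197516737, minus strand, 12 exons), the mitochondrial chaperonin, had 8960 and 10489 counts in WT and 8432 and 8370 in T4A. Its levels were 229, 238, 251 and 242 CPM, so both T4A libraries were above both WT libraries. The gap between WT replicate 2 and T4A replicate 2 was smaller than that between the WT replicates. The log2 fold change was 0.08 ± 0.09 (SE) with an adjusted p of 0.695 (edgeR) and an interval from -0.13 to 0.29, and it was 0.06 without T4A replicate 1. HSPE1, its cochaperonin, which lies on the other strand of the same locus, had 13 counts or fewer per library and was not tested. Of its 3310 bases, 3037 (91.8%) lie inside HSPE1-MOB4 on the same strand, where reads were left out, so the count says little about its transcription. HSPE1-MOB4 had 659, 820, 772 and 669 counts.

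**Figure D4:**
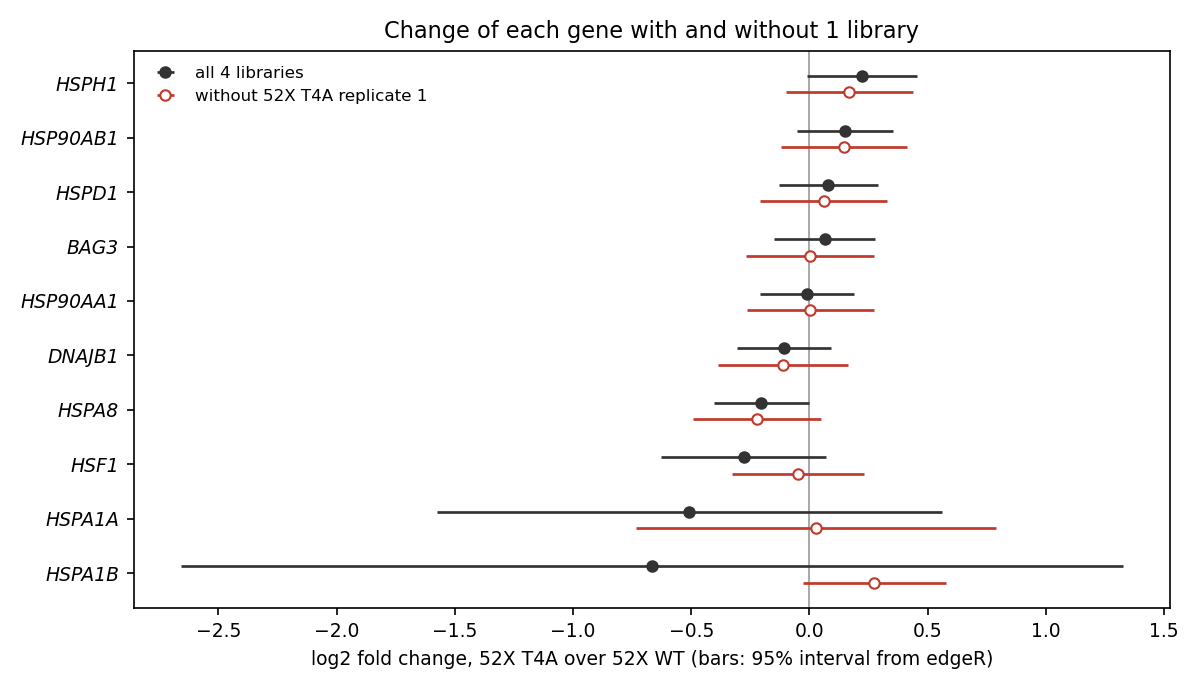
Log2 fold change of 52X T4A over 52X WT for the 10 genes with 95% intervals from edgeR, from all 4 libraries (filled) and without T4A replicate 1 (open). HSPA1B moves from -0.67 to 0.27 and HSPA1A from -0.51 to 0.03 when that library is left out, while HSPA8 stays at -0.20 and -0.22.

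The wider proteostasis network was followed through 8 lists with 91 further genes, of which 83 were tested. Again 0 genes were called by edgeR. At an unadjusted p below 0.05, 5 of the 83 (6.02%) were lower in T4A and 14 (16.9%) were higher, where 8.02% and 7.45% of all tested genes were. Both T4A libraries lay below both WT libraries for 12 genes (14.5%) and above for 29 (34.9%), beside 24.7% and 24.8% of all genes. The median log2 fold change was 0.06, and 0.02 without T4A replicate 1. Without that library 6 of 84 tested genes were lower and 11 (13.1%) were higher, against 7.75% and 6.25% of all genes. Among the genes higher at an unadjusted p below 0.05 with all libraries, DNAJA4 had only 4, 2, 12 and 10 counts and HSPA12B 16, 14, 36 and 22. The list with the most genes at an unadjusted p below 0.05, that of the J-domain proteins, was also the largest, with 6 higher and 2 lower of 19 tested. With T4A replicate 1 omitted it had 3 higher and 3 lower. In the HSP70 and HSP110 family other than the 4 genes above, 2 of 11 were higher and 0 were lower, with a median of 0.18. With T4A replicate 1 left out, 1 was higher and 0 were lower, with a median of 0.13.

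In the J-domain, HSP90 and HSP70 lists, the genes with the largest positive and negative log2 fold change at a mean count of at least 50 were as follows. DNAJA3, a mitochondrial J-domain protein, had 3118 and 3755 counts in WT and 2001 and 1953 in T4A. Its log2 fold change of -0.51 ± 0.09 (SE) had the smallest adjusted p of the 83 genes, 0.150 (edgeR), and was -0.54 without T4A replicate 1. DNAJA1, a cytosolic partner of HSP70, had 10068, 11627, 11727 and 10617 counts and a log2 fold change of 0.33 ± 0.10, or 0.24 without T4A replicate 1. HSP90B1, the HSP90 of the endoplasmic reticulum, had 12136, 14752, 13407 and 13764 counts and a value of 0.31 ± 0.10, which stayed at 0.31 without T4A replicate 1. HYOU1, the exchange factor of that compartment, stood at 0.30 ± 0.12 with all libraries and at 0.44 without that library. HSPA13, another HSP70 protein there, stood at -0.13 ± 0.13 and -0.14. UNC45A, which helps HSP90 fold myosin, stood at -0.37 ± 0.14 with all libraries and at -0.23 without T4A replicate 1, a move of more than 1.5 times.

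In the remaining lists each log2 fold change (± SE) is followed by its value without T4A replicate 1. HSF5, a member of the HSF family, had 85, 60, 112 and 107 counts and stood at 0.87 ± 0.29 and 0.82. HSBP1, which binds HSF1 trimers, stood at -0.11 ± 0.13 and -0.23. BAG1 stood at 0.17 ± 0.10 and 0.11, and the ubiquitin ligase STUB1, which marks HSP70 clients, at -0.94 ± 0.42 and -0.33. Of the small heat shock proteins, HSPB8, the partner of BAG3, had 1483 and 1619 counts in WT and 1725 and 1627 in T4A and stood at 0.40 ± 0.10 and 0.34. HSPB1 stood at -0.48 ± 0.73 and 0.40. The chaperonin genes CCT6B and CCT3 stood at 0.28 ± 0.12 and 0.33, and at -0.18 ± 0.09 and -0.24. The ubiquitin gene UBB stood at 0.28 ± 0.09 and 0.28, and LONP1, a mitochondrial protease, at -0.32 ± 0.16 and -0.11. The values of HSBP1, STUB1 and LONP1 moved by more than 1.5 times without that library, and that of HSPB1 turned its sign. None of the genes of this paragraph passed the adjusted threshold in edgeR with all 4 libraries.

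HSPB1 and STUB1 were, like HSPA1B, far lower in T4A replicate 1 than elsewhere. Of the 76 further genes tested with a mean count of at least 50, these 2 lay more than 1 log2 unit below the other 3 libraries in T4A replicate 1. Across the whole table, 306 of the 14426 genes with a mean count of at least 100 did so. HSPB1 (63.6% GC) had 466, 514, 48 and 535 counts, or 11.9, 11.7, 1.43 and 15.5 CPM, so that T4A replicate 1 was 8.24-fold below the WT mean and T4A replicate 2 was 1.31-fold above it. STUB1 (64.9% GC) had 507, 488, 100 and 328 counts, or 12.95, 11.1, 2.98 and 9.49 CPM, so that both T4A libraries lay below both WT libraries, unlike for HSPA1B and HSPB1. HSPA6, a strictly heat-inducible HSP70, was listed at 0 in all libraries, but it lies inside a same-strand gene, where reads were left out, so the value says nothing about its transcription.

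**Figure D5:**
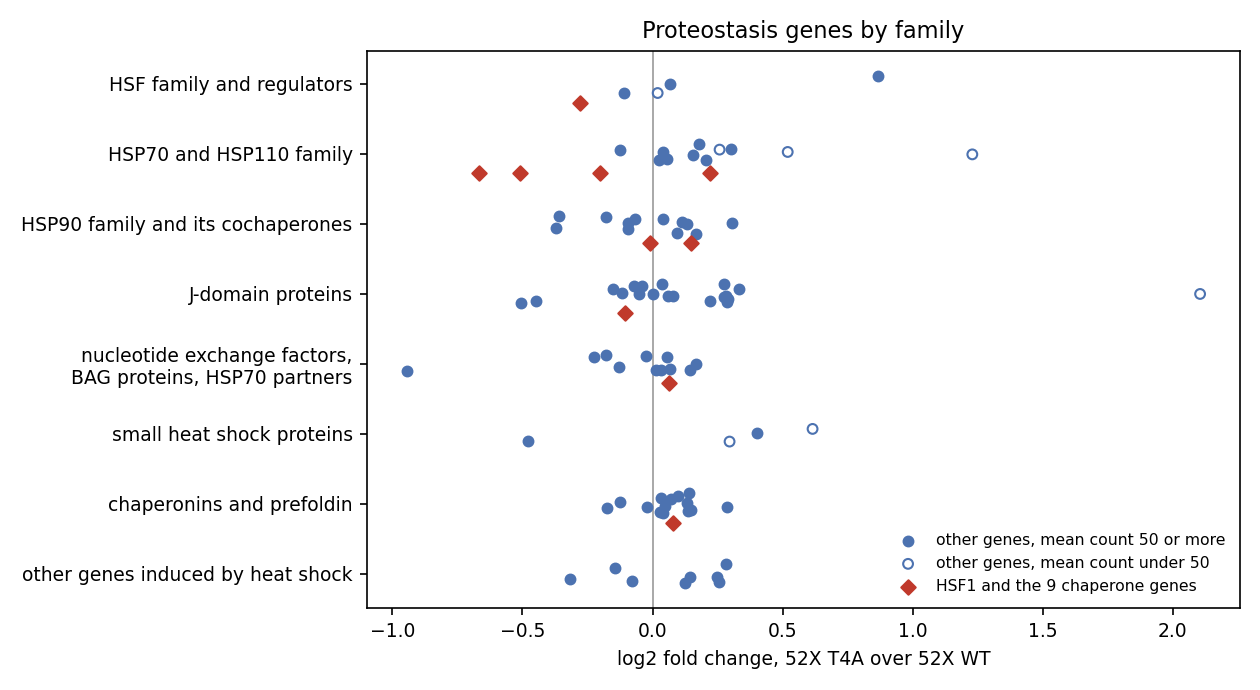
Log2 fold change of 52X T4A over 52X WT for 83 further proteostasis genes by family (blue, open where the mean count is under 50) and for HSF1 and the 9 chaperone genes (red diamonds). Most genes lie between -0.5 and 0.5, and the leftmost points are STUB1 at -0.94 and HSPA1B at -0.67.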

How the data were processed

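The authors deposited raw counts per gene, made with featureCounts from uniquely aligned reads of strand-specific libraries built from 50 ng of RNA. The submitters' processing notes name GRCh38, FastQC, cutadapt 4.6, STAR 2.7.11b, Picard and deepTools 3.5.6. The version and strand setting of featureCounts are not given in the sources used here. The listed length equals the gene span, so introns were counted. Counts were tested with edgeR 4.0.16 in R 4.3.3 (TMM, filterByExpr, quasi-likelihood test, condition as the single term), on all 4 libraries, and standard errors came from the F statistic. The test was checked on simulated data, which did not hold the GC content trend of T4A replicate 1. CPM are counts scaled by library size and TMM factor. Alternatives were DESeq2 1.42.0, other scalings and filters, a gene length trend, a replicate block and leaving out each library. Removal of a GC content trend was chosen after seeing the data. GC content and exonic length came from GRCh37 by stable identifier. The genes and lists were chosen with earlier results of these data known. Named are all 10 genes and, per list, the genes with the largest positive and negative log2 fold change at a mean count of at least 50, plus neighbours that bear on a count.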

Additional observations from a re-analysis of the deposited data

How the results depend on the processing

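Over 16 alternatives each, HSPA8 and DNAJB1 kept a negative and HSPH1, HSP90AB1, HSPD1 and BAG3 a positive log2 fold change. HSP90AA1 turned to 0.0410 with library size alone, 0.0681 with upper quartile factors and 0.0229 with protein-coding genes only, and ranged from -0.0317 to 0.00388 with 1 library left out, the latter without T4A replicate 1. Without that library HSPA1A turned to 0.0272 and HSPA1B to 0.274, and HSF1 turned to 0.0443 with the exonic GC content trend removed and stood at -0.13 with the span GC content trend removed. The count of called genes in the table, 1 as reported, was 65 with no filter on low counts, 99 with DESeq2, 2 with the gene length trend removed, 433 with the replicate block, 327 with the GC content trend removed, 133 with exonic GC content, 652 with the replicate block and the GC content trend, and 0 to 2500 with 1 library left out (3 without WT replicate 1, 0 without WT replicate 2, 195 without T4A replicate 1, 2500 without T4A replicate 2). Of the 10 genes, 0 were called in the fits on all 4 libraries, except for 1 with the replicate block alone. This was HSPA1B at -1.65 (adjusted p = 2.2e-09 in edgeR), in a fit that called 433 of 23321 genes. Its same-numbered libraries moved in opposite directions. Replicate 1 went from 20.9 CPM in WT to 1.13 in T4A, and replicate 2 from 19.7 to 24.4. That fit therefore gives HSPA1B no direction. Without T4A replicate 2, T4A replicate 1 alone stood for the T4A CTD, with HSPA1A at -1.37, HSPA1B at -4.17 and HSF1 at -0.55. The deviations of same-numbered libraries correlated at 0.00498. With 2 libraries per condition, and T4A replicate 1 apart from the rest, this value cannot show whether replicate numbers pair the libraries. With the GC content trend removed, HSPA8 at -0.23 and HSPH1 at 0.22 had adjusted p-values of 0.0330 and 0.0148 in edgeR, below the 1.5-fold limit, where 10.1% of all genes passed that p alone. The median of the 10 genes less that of all genes, -0.06 as reported, was -0.139 with no filter, -0.0154 with protein-coding genes, -0.00895 with exonic GC content and -0.0928 to 0.0123 with 1 library left out. That of the other proteostasis genes, 0.06, was -0.0214 with no filter, 0.10 with protein-coding genes only, 0.03 with either GC content trend removed (0.03 with the block too) and 0.00785 to 0.0956 with 1 library left out. The causes of these differences were not tested. Upper quartile factors moved the median of all genes by 0.08. At 16 to 53 counts, depth limits HSPA1A most.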
